A study of Arabidopsis thaliana with 24 samples.

Results

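Of the 32102 lines of the deposited table that named 1 gene, 25 genes were silent in wild-type Arabidopsis shoots and on in shoots of the Polycomb mutant clf-28. Silent meant under 0.1 FPKM in each of the 3 WT shoots libraries, and on meant at least 1 FPKM in both clf-28 shoots replicates 1 and 2. Both were judged on single lines, and other lines of some of these genes, given below, were not under 0.1 FPKM in WT shoots. FPKM is a fragment number divided by the length of the transcript and by the size of the library. The genes were chosen by the shoots values of these 5 libraries, so the difference between clf-28 and WT shoots is a description here and carries no test. The 25 genes were a small part of the 10460 genes under 0.1 FPKM in all WT shoots libraries. The opposite pattern, clf-28 shoots replicates 1 and 2 under 0.1 FPKM and all WT shoots at 1 FPKM or more, held for 4 genes.

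The study compared transcripts of Arabidopsis thaliana wild type (Col-0, WT) and clf-28 plants by strand-specific RNA sequencing. Roots and shoots (the aerial parts) came from plates at 2 weeks of age, and inflorescences and siliques from soil at 5 weeks, all under long days. Each of the 8 groups of genotype and tissue held 3 libraries, 24 in all, described as biological replicates, and all groups were of the Col-0 background. A tissue library pools many cell types, so fewer cells of a type and less RNA per cell cannot be told apart.

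CURLY LEAF (CLF) is a histone methyltransferase of the plant Polycomb complex that places the repressive mark H3K27me3. The mark keeps developmental genes off in tissues and at stages where their products are not used, and clf mutants have curled leaves, flower early and express floral regulators in leaves. SWINGER acts in parallel with CLF in vegetative tissues, and MEDEA does so in the developing seed. Seed storage proteins and oil-body proteins accumulate in the maturing embryo and are switched off after germination, a change in which Polycomb marks are known to take part.

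The CLF transcript itself (AT2G23380, chr2:9952867-9963623) was read in both genotypes. It stood at 8.84, 8.33 and 6.93 FPKM in WT shoots and at 7.93 and 6.81 FPKM in clf-28 shoots replicates 1 and 2, and these groups overlapped. In roots it stood at 8.09, 13.8 and 14.2 FPKM in WT and at 7.76, 7.42 and 8.09 FPKM in clf-28. In inflorescences it stood at 7.50, 8.25 and 7.31 FPKM in WT and at 15.7, 12.1 and 19.5 FPKM in clf-28, and in siliques at 6.15, 6.44 and 6.05 FPKM in WT and at 19.0 and 11.9 FPKM in clf-28 replicates 1 and 2. The clf-28 values were thus above every WT value in inflorescences and siliques, and the gene-level value does not resolve the lesion in clf-28. A pair of libraries went against their labels. The library bearing the label clf-28 shoots replicate 3 correlated at 0.764 (mean Spearman) with clf-28 shoots replicates 1 and 2 and at 0.979 with clf-28 siliques replicates 1 and 2, across 22656 genes. The library bearing the label clf-28 siliques replicate 3 gave 0.987 with the shoots replicates and 0.772 with the siliques replicates. Genes are not independent replicates, so these are descriptions. Both libraries are given by their labels throughout and entered neither the choice of genes nor the tests, except where a value with them is named. An exact 0 need not mean absence. AT5G18460, the most abundant of the 4 genes with the opposite pattern, was listed at 2284, 4205 and 2903 FPKM in WT shoots, at 0 in all 3 libraries labelled clf-28 shoots and at 2165 FPKM in the library bearing the label clf-28 siliques replicate 3.

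The mean of each gene over clf-28 shoots replicates 1 and 2 ran from 1.01 FPKM for AT4G35680 to 435 FPKM for AT5G03204, and 16 of the 25 genes were at 2 FPKM or more in both. Closest inside the upper limit on WT shoots were HSD6 at 0.0909 FPKM, ATS1 at 0.0825 FPKM and AT5G40790 at 0.0811 FPKM in their highest WT shoots library. Just outside were AT1G51780 at 0.102 FPKM, AT4G15150 at 0.110 FPKM and AT3G53600 at 0.115 FPKM. By the lower of the 2 clf-28 shoots values, AT4G35680 at 1.00 FPKM, HSD6 at 1.03 FPKM and AT4G15460 at 1.07 FPKM were just inside, and AT1G07590 at 0.946 FPKM, AT4G33470 at 0.906 FPKM and AT2G44578 at 0.898 FPKM just outside. Of the 25 genes, 14 were listed at 0 in all 3 WT shoots libraries and 11 had a value above 0 in at least 1 of them.

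**Figure D1:**
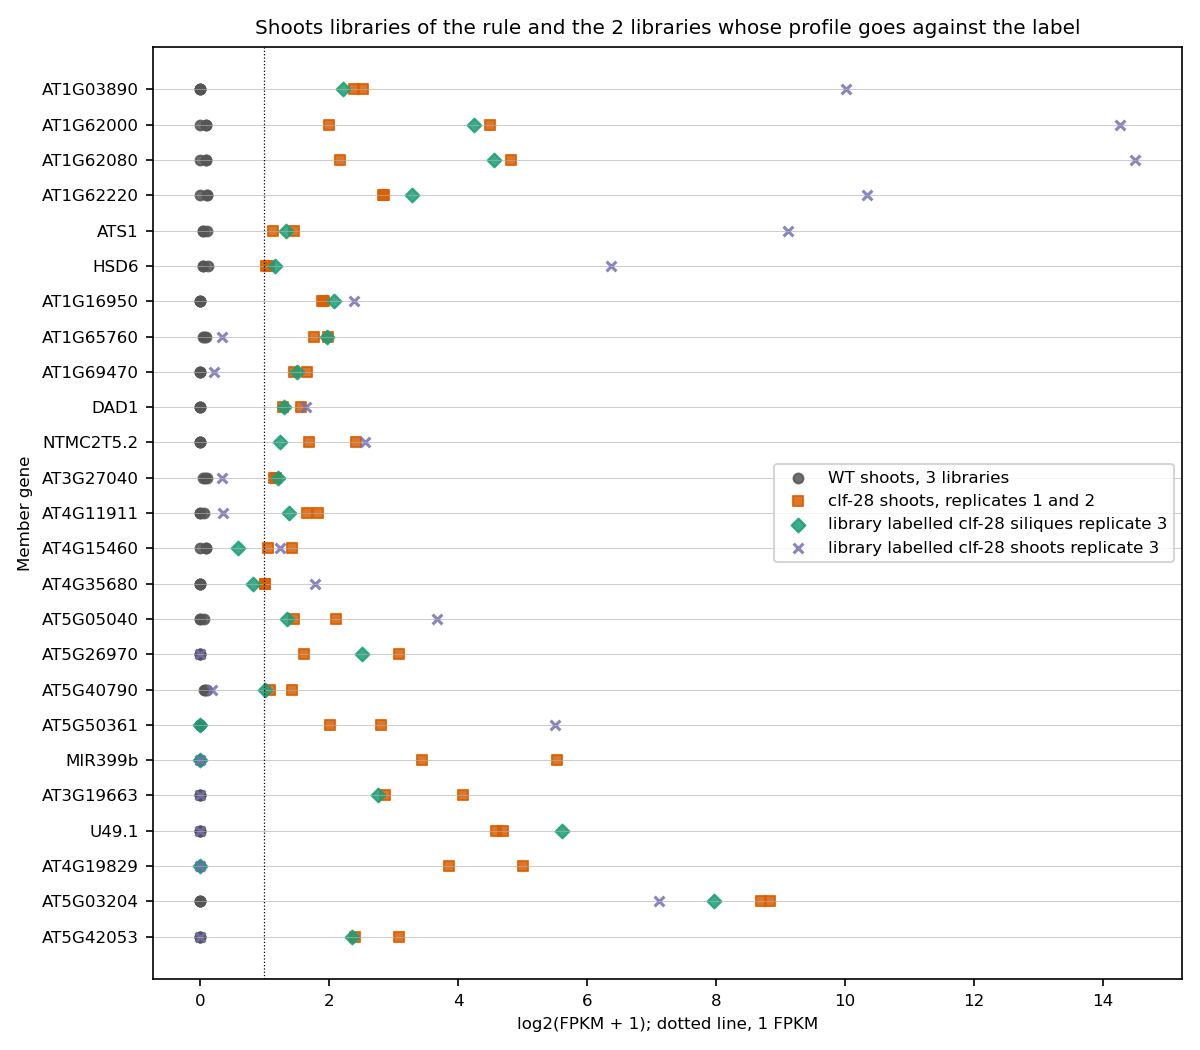
Each row is 1 of the 25 genes and each symbol 1 library, on an axis of log2(FPKM + 1) with a dotted line at 1 FPKM. WT shoots (grey circles) all lie at or near 0 and clf-28 shoots replicates 1 and 2 (orange squares) at or right of the line, as the choice required. The library bearing the label clf-28 siliques replicate 3 (green diamonds) lies at or right of the line for 20 of the 25 genes.

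The library bearing the label clf-28 siliques replicate 3 was not used to choose the genes. In it, 20 of the 25 genes (80%) stood at 1 FPKM or more, against 38 of the 10460 genes silent in WT shoots (0.363%), of which 18 were not among the 25. The other 5 were MIR399b, AT4G19829 and AT5G50361, each listed at 0, AT4G15460 at 0.505 FPKM and AT4G35680 at 0.772 FPKM. In the library bearing the label clf-28 shoots replicate 3 the number was 14 of 25 (56%), against 8.59% of the genes silent in WT shoots. The 6 seed genes described next were at 81.9 to 23202 FPKM in that library.

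Transcripts of the maturing seed formed the most abundant family by WT level. AT1G03890 encodes a cupin protein, the fold of the cruciferin storage globulins. ATS1 (AT4G26740, peroxygenase 1) is a caleosin, a calcium-binding protein of seed oil bodies, and HSD6 (AT5G50770) is a hydroxysteroid dehydrogenase related to the oil-body steroleosins. AT1G62000, AT1G62080 and AT1G62220 encode related proteins of unknown function. The 250 bases before the annotated start are shown for the 3 seed genes whose window held an RY element (CATGCA or TGCATG, recognised by the seed maturation factors) or a G-box (CACGTG), in capitals, and for AT1G62000 and AT1G62080, whose windows held neither but share sequence. All are from the RefSeq TAIR10.1 genome. They lie at chr1:988948-989197, plus strand, for AT1G03890, at chr4:13475372-13475621, minus strand, for ATS1, at chr5:20648726-20648975, minus strand, for HSD6, at chr1:22913109-22913358, plus strand, for AT1G62000 and at chr1:22946950-22947199, minus strand, for AT1G62080.
AT1G03890: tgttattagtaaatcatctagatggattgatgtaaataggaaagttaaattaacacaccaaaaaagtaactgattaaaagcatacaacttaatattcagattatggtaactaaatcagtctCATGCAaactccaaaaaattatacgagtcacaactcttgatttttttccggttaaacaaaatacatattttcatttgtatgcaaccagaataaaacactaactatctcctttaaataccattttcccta
ATS1: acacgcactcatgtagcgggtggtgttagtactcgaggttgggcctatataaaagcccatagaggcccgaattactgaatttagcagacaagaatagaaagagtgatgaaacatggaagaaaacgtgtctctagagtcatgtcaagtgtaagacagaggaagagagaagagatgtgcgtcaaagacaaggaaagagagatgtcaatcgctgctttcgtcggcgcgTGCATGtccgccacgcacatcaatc
HSD6: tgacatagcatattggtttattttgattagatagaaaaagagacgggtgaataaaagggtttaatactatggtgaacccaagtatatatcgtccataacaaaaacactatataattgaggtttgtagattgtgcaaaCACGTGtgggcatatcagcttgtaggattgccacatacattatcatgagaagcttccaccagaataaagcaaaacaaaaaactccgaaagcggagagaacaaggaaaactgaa
AT1G62000: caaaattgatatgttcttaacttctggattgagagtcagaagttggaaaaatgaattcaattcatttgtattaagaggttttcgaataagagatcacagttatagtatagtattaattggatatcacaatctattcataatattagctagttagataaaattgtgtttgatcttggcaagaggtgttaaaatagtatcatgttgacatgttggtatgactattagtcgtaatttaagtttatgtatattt
AT1G62080: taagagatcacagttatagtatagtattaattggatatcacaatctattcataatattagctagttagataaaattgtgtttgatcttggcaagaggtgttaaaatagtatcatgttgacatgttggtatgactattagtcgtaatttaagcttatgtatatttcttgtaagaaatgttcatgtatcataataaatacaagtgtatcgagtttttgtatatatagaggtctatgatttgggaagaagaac
The match began 129 bases before the start in AT1G03890, 25 in ATS1 and 113 in HSD6. In windows of 300 bases, 250 before and 50 after the start, searched on both strands, the RY element was found in 7 of the 24 genes with an annotated start (29.2%) and in 10.4% of all 37897 annotated starts. The G-box was found in 4 of 24 (16.7%) and in 6.46% of all. The letters GAGAGA, the repeat of a motif linked to Polycomb recruitment, stood in 7 of 24 (29.2%) and in 28.5% of all, and the telobox AAACCCTA in 1 of 24 (4.17%) and in 6.17% of all. Both kinds of match were found in HSD6 and AT5G50361, and the RY element of HSD6 lay after its start. A match describes the letters in the window and not a bound site. The windows of AT1G62000 and AT1G62080 held an identical run of 151 bases, and the longest run either shared with AT1G62220 was 17 bases. The run of 151 bases began at the edge of the AT1G62080 window, so its full length is not known. Only exact runs were measured, so a likeness of the AT1G62220 window with single-base differences is not excluded.

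In shoots the cupin gene AT1G03890 (chr1:989198-991032) was listed at 0 in all 3 WT libraries and stood at 4.78 and 4.24 FPKM in clf-28 replicates 1 and 2. In roots it was at 0, 0 and 0.0229 FPKM in WT and at 3.89, 2.86 and 2.1 FPKM in clf-28. The clf-28 level was thus low and even in these tissues, and the root groups did not overlap. In inflorescences it was at 0.292, 0 and 0 FPKM in WT and at 3.21, 2.59 and 2.08 FPKM in clf-28, again without overlap. In siliques the WT libraries read 226, 0.0617 and 0 FPKM and clf-28 replicates 1 and 2 read 1110 and 1079 FPKM. WT siliques replicate 1 stood far from the other WT siliques, below both clf-28 values.

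The 3 related genes AT1G62000 (chr1:22913441-22914146), AT1G62080 (chr1:22946242-22946949) and AT1G62220 (chr1:22988196-22988844) lie within 75404 bases of chromosome 1. Their transcripts were 94.8% identical over 694 bases between AT1G62000 and AT1G62080, and 87.4% and 87.8% identical over 637 bases to that of AT1G62220. AT1G62220 was closest to another gene of the stretch, AT1G62060, at 92.0% over 634 bases. Reads could be split between such copies, so the value of each copy is uncertain. In clf-28 siliques replicates 1 and 2, 7 of the 29 genes of the stretch averaged 100 FPKM or more, among them these 3 members. AT1G62040, also among the 7, was not particular to siliques, at 121, 98.3 and 84.5 FPKM in WT shoots. Relatives lay outside the choice. AT1G62060 read 0.156, 0.399 and 0.174 FPKM in WT shoots, and AT1G62070 read 0 in all WT shoots but 0.457 and 4.70 FPKM in clf-28 shoots replicates 1 and 2.

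AT1G62080 read 0, 0.0634 and 0.0646 FPKM in WT shoots and 3.50 and 27.3 FPKM in clf-28 shoots replicates 1 and 2. It read 0, 0.0472 and 0.0411 FPKM in WT roots and 4.73, 17.1 and 18.5 FPKM in clf-28 roots. It read 0, 0.127 and 0.255 FPKM in WT inflorescences and 1.93, 14.6 and 16.0 FPKM in clf-28 inflorescences. In each of these tissues clf-28 replicate 1 was the lowest mutant library, and every mutant library was above every WT library. In siliques AT1G62080 read 2562, 24 and 28.4 FPKM in WT and 13998 and 16040 FPKM in clf-28 replicates 1 and 2. AT1G62000 followed the same course at a slightly lower level, with 3.00 and 21.7 FPKM in clf-28 shoots replicates 1 and 2, 4.22, 12.9 and 15.2 FPKM in clf-28 roots and 1.63, 14.3 and 13.1 FPKM in clf-28 inflorescences. No WT library of roots, shoots or inflorescences exceeded 0.261 FPKM for AT1G62000. AT1G62220 was more even among mutant libraries, at 6.17 and 6.20 FPKM in shoots replicates 1 and 2, 5.21, 5.49 and 7.62 FPKM in roots and 5.28, 5.12 and 5.56 FPKM in inflorescences. AT1G62220 was listed at 0 in all 3 WT roots libraries and reached 0.127 FPKM in WT inflorescences.

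The oil-body genes were lower. ATS1 (chr4:13473392-13475328) read 0.0825, 0.0306 and 0.0287 FPKM in WT shoots and 1.19 and 1.73 FPKM in clf-28 shoots replicates 1 and 2. It read 0, 0 and 0.0581 FPKM in WT roots against 0.922, 2.14 and 1.18 FPKM in clf-28 roots, and 0.114, 0.205 and 0.0678 FPKM in WT inflorescences against 0.306, 1.47 and 1.1 FPKM in clf-28 inflorescences. The groups did not overlap in either tissue. In siliques ATS1 read 251, 0 and 0.0746 FPKM in WT and 673 and 601 FPKM in clf-28 replicates 1 and 2. HSD6 (chr5:20646637-20648877) read 0.0295, 0.0909 and 0.0320 FPKM in WT shoots and 1.1 and 1.03 FPKM in clf-28 shoots replicates 1 and 2. It read 30.3, 2.05 and 2.1 FPKM in WT siliques and 70.5 FPKM in clf-28 siliques replicate 2, and the value of clf-28 siliques replicate 1 carried the status FAIL, so HSD6 was not tested. In roots it read 0, 0.0509 and 0.0524 FPKM in WT and 0, 0.144 and 0.171 FPKM in clf-28, which overlapped, and in inflorescences at most 0.0713 FPKM in WT and 0.233, 0.71 and 0.442 FPKM in clf-28, which did not.

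The tests used the tissues that had no part in the choice. A limma model of log2(FPKM + 1) with 1 mean per group was fitted to 17 libraries, all roots and inflorescences, WT siliques and clf-28 siliques replicates 1 and 2, over 24418 genes with a mean of 0.1 FPKM or more. A gene was called at a Benjamini-Hochberg adjusted p under 0.05, two-sided, and log2 differences below are on this scale, which understates the change of genes at low FPKM. Of the 25 genes, 20 were tested. MIR399b and AT5G42053 were listed at 0 in all 17 libraries, AT1G69470 and AT3G27040 averaged 0.0356 and 0.0963 FPKM, and HSD6 had the failed value. Depth per library is unknown, since the files give no read counts.

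In clf-28 siliques all 5 tested seed genes rose. The log2 difference was 7.46 (SE 1.60, limma adjusted p = 0.00417) for AT1G03890, 7.71 (SE 1.72, adjusted p = 0.00514) for AT1G62000 and 6.92 (SE 1.48, adjusted p = 0.00407) for AT1G62080. It was 6.66 (SE 1.46, adjusted p = 0.00457) for AT1G62220 and 6.62 (SE 1.64, adjusted p = 0.00953) for ATS1. Without WT siliques replicate 1 the differences were larger, at 10.05 for AT1G03890, 10.33 for AT1G62000, 9.11 for AT1G62080, 9.02 for AT1G62220 and 9.26 for ATS1. The ATS1 call was lost without clf-28 siliques replicate 1 (adjusted p = 0.0672) or replicate 2 (adjusted p = 0.0535), and with the 5 siliques libraries fitted alone none of the 5 was called (adjusted p = 0.116 to 0.172). The siliques difference moved with the whole seed storage list. The summed FPKM of its measured genes ran from 36.9 to 53900 in WT siliques, highest in replicate 1, and from 144000 to 153000 in clf-28 siliques replicates 1 and 2, and all 15 of the 15 genes tested rose, where 10.4% of all tested genes did. In each of these clf-28 libraries 2 of the 17 measured genes were listed at 0, and in WT siliques replicate 1 0 were. Only 15 of the 17 had status OK in every library, so the sums may leave out failed values. The stage of the siliques is not given by the labels, and its part in the result was not tested.

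In roots and inflorescences the 5 tested seed genes were higher in every clf-28 library than in every WT library, at a spread that depended on the libraries fitted together. In the 17 libraries none of the 5 was called in roots (log2 difference 1.95 for AT1G03890, 3.25 for AT1G62000, 3.62 for AT1G62080, 2.81 for AT1G62220 and 1.21 for ATS1, limma adjusted p = 0.141 to 0.829). A fit of the 12 libraries of roots and inflorescences alone, chosen after the data had been seen, left out the siliques whose WT replicates differed most in these genes. In it all 5 rose in roots, from AT1G62220 (SE 0.13, limma adjusted p = 4.79e-07) to AT1G62000 (SE 0.61, adjusted p = 0.0066). In inflorescences 4 rose in that fit, AT1G03890 by 1.72 (SE 0.18, limma adjusted p = 0.000696), AT1G62000 by 2.97 (SE 0.61, adjusted p = 0.0269), AT1G62080 by 3.03 (SE 0.63, adjusted p = 0.0282) and AT1G62220 by 2.60 (SE 0.13, adjusted p = 1.2e-05), and ATS1 was not called. All 5 genes stood at 0.292 FPKM or less in every WT library of that fit. They passed the filter on low values through the clf-28 libraries, and the WT libraries added little to the spread. The p-values of the 12 libraries thus rest partly on WT values at or near 0.

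Seed transcripts outside this set moved with these genes. The summed FPKM of the seed storage list, which holds ATS1 and 16 other measured genes such as 2S albumins, cruciferins and oleosins, was 3.23 to 10.7 in WT roots and 254 to 554 in clf-28 roots. It was 6.84 to 13.5 in WT shoots and 306 to 790 in clf-28 shoots replicates 1 and 2, and 15 to 45.9 in WT inflorescences and 222 to 536 in clf-28 inflorescences. Every clf-28 library of these tissues was thus above every WT library of the same tissue. No seed was sampled in roots or shoots by the labels. As a share of the mean of clf-28 siliques replicates 1 and 2, the median over 15 list genes was 0.0625% to 0.143% in clf-28 roots, 0.105% and 0.255% in clf-28 shoots replicates 1 and 2 and 0.111% to 0.226% in clf-28 inflorescences. In WT roots, shoots and inflorescences it was at most 0.0245%. Low-level seed reads in clf-28 libraries and transcription in the sampled tissue cannot be told apart from these values, and their part in the result was not tested.

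The share was not the same for every seed gene. Over the 15 genes of the list it ran from 0.0222% to 8.54% in clf-28 shoots replicate 1, with a median of 0.105%, and from 0.153% to 6.11% in replicate 2, with a median of 0.255%. In these libraries it was 0.0237% and 0.171% for AT1G62000, 0.0233% and 0.182% for AT1G62080, and 0.187% and 0.272% for ATS1. It was 0.436% and 0.387% for AT1G03890 and 0.654% and 0.658% for AT1G62220, and for HSD6, set against the one valid siliques value, 1.56% and 1.46%. ATS1 is itself on the list, so its place within the range was given in advance, and the other 5 lay within this wide range too. AT1G62000 and AT1G62080 were below the list median and the other 4 of the 6 above it in both libraries. High shares at the top of the list were not particular to clf-28. In WT the highest list gene stood at 2.84%, 4.14% and 2.04% in shoots and at 12.1%, 5.03% and 6.82% in roots. AT1G62220 had the highest share of the first 5 genes in each of the 9 clf-28 libraries plotted. Replicate 1 had the lowest list median in each clf-28 tissue, and AT1G62000 and AT1G62080 had their lowest share there too, while AT1G03890 had its highest. Master regulators of seed maturation (LEC1, LEC2, FUS3 and ABI3) summed to 0.309 to 0.502 FPKM in WT shoots and to 0.695 and 0.880 FPKM in clf-28 shoots, against 170 to 221 FPKM in clf-28 siliques replicates 1 and 2. Of these regulators, LEC2 was listed at 0 in clf-28 shoots replicates 1 and 2. The endosperm list summed to 0.540 to 0.979 FPKM in WT shoots and 2.59 to 2.74 FPKM in clf-28 shoots, and the seed coat list to 2.16 to 4.44 and 3.04 to 4.16 FPKM. Only 1 of the 8 measured endosperm genes reached 1 FPKM in each of clf-28 shoots replicates 1 and 2. The higher endosperm sum thus need not hold for the list as a whole.

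**Figure D2:**
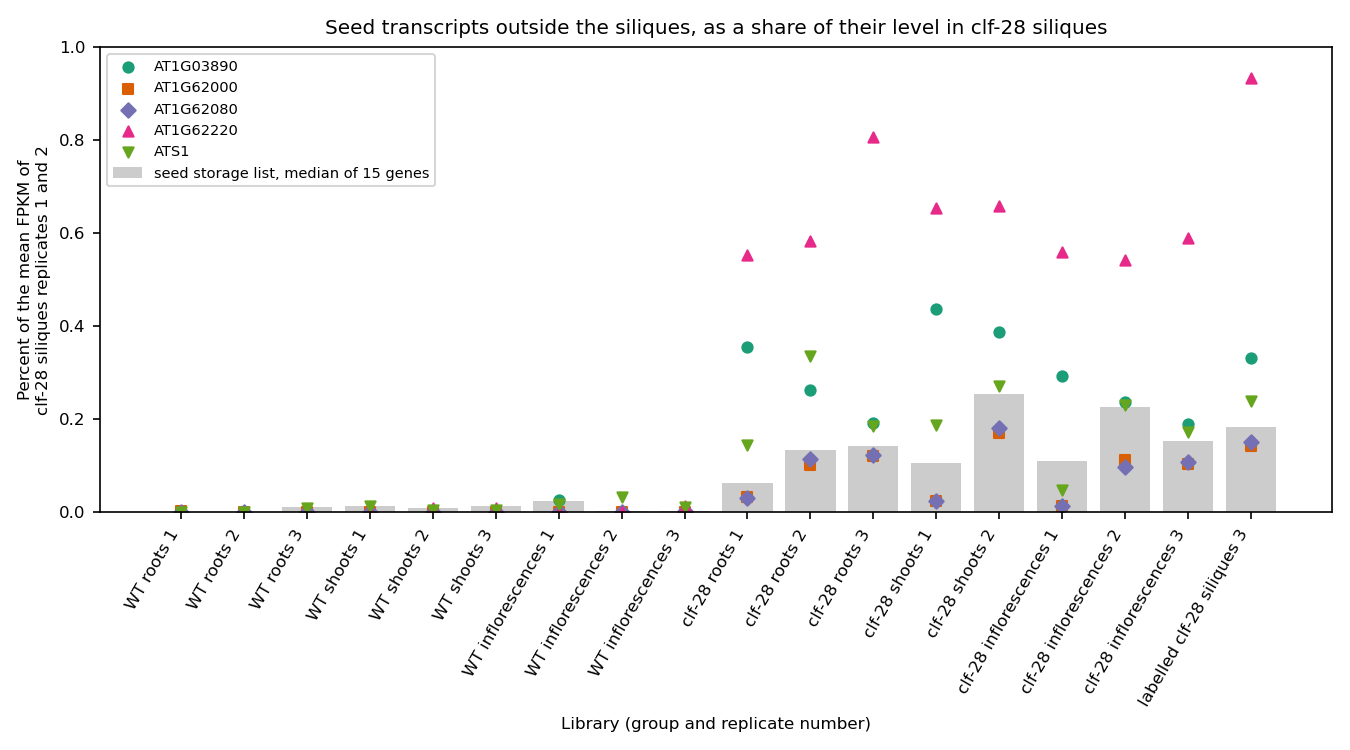
Each point is the FPKM of 1 seed gene in 1 library as a percentage of its mean in clf-28 siliques replicates 1 and 2, and grey bars are the median over 15 genes of the seed storage list. WT roots, shoots and inflorescences lie near 0, the clf-28 libraries of the same tissues above them. AT1G62220 (pink) lies highest among the clf-28 libraries and AT1G62000 and AT1G62080 lie lowest, so the genes do not share 1 ratio.

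Among genes of the flower and fruit, AT5G05040, which encodes a protein of the cystatin superfamily, was higher in clf-28 in all 3 tested tissues. In shoots it read 0, 0.0449 and 0 FPKM in WT and 3.30 and 1.76 FPKM in clf-28 replicates 1 and 2. In roots it read 0.841, 0 and 0.179 FPKM in WT and 1.66, 3.33 and 2.80 FPKM in clf-28, and in inflorescences 4.69, 6.14 and 5.76 FPKM in WT and 12.2, 12.5 and 15.9 FPKM in clf-28. In siliques it read 6.03, 4.18 and 3.52 FPKM in WT and 11.0 and 13.3 FPKM in clf-28 replicates 1 and 2. The groups did not overlap in any of these tissues. AT5G05040 rose by 1.44 in roots (SE 0.24, limma adjusted p = 0.00176), by 1.15 in inflorescences (SE 0.24, adjusted p = 0.0226) and by 1.26 in siliques (SE 0.27, adjusted p = 0.00409). The inflorescences call was lost without WT inflorescences replicate 3 (adjusted p = 0.0597) or without clf-28 inflorescences replicate 2 (adjusted p = 0.0678) or 3 (adjusted p = 0.113). With a pseudocount of 0.1 FPKM the inflorescences difference was 1.27 with an adjusted p of 0.348 and the siliques difference 1.42 with one of 0.124, so neither was called. With all 24 libraries as labelled all 3 calls were lost (adjusted p = 0.182 to 0.608). Its transcript was 95.3% identical to that of AT5G05060 over 514 bases, so reads could be split between them.

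DAD1 (AT2G44810) encodes a phospholipase that starts jasmonate synthesis and is needed for anther opening. It was listed at 0 in all WT shoots and stood at 1.44 and 1.95 FPKM in clf-28 shoots replicates 1 and 2. DAD1 read 0.134, 0.256 and 0.729 FPKM in WT inflorescences and 0.287, 0.234 and 0.575 FPKM in clf-28 inflorescences, groups that overlapped. It read 0.744, 0.393 and 0.753 FPKM in WT siliques and 2.07 and 1.96 FPKM in clf-28 siliques replicates 1 and 2. DAD1 rose in siliques by 0.90 (SE 0.16, limma adjusted p = 0.0012) and was not called in roots or inflorescences. The siliques difference exceeded that in inflorescences by 0.89 (SE 0.21, adjusted p = 0.0132) and that in roots by 0.81 (SE 0.21, adjusted p = 0.0193). In these tests of a difference between differences, 7.25% of all tested genes were called higher and 7.6% lower for siliques against inflorescences, and 6.28% higher and 10.2% lower for siliques against roots. A second line of the table for DAD1 was also listed at 0 in WT shoots and read 0.882 and 0.934 FPKM in clf-28 shoots replicates 1 and 2.

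AT4G35680, a protein without an established role, was the gene that fell, by the line chosen here. It read 2.62, 5.77 and 5.79 FPKM in WT siliques and 2.22 and 1.75 FPKM in clf-28 siliques replicates 1 and 2, and fell by 0.88 (SE 0.23, limma adjusted p = 0.0108). The groups did not overlap, and the call was lost without clf-28 siliques replicate 2 (adjusted p = 0.0968) and with a pseudocount of 0.1 FPKM (-1.13, adjusted p = 0.121). Its siliques difference lay below its roots difference by -1.08 (SE 0.30, adjusted p = 0.0267). In shoots it was listed at 0 in WT and stood at 1.00 and 1.02 FPKM in clf-28 replicates 1 and 2. Another line of AT4G35680 at the same locus read 1.51, 1.43 and 0.919 FPKM in WT shoots and 4.09 and 4.11 FPKM in clf-28 shoots, so the gene as a whole was not silent in WT shoots. In siliques that line read 5.63, 6.24 and 4.98 FPKM in WT and 2.79 and 2.33 FPKM in clf-28 replicates 1 and 2, without overlap. A further line read 4.38, 17.6 and 8.49 FPKM in WT siliques. It read 3.83 and 7.60 FPKM in clf-28 siliques replicates 1 and 2, which overlapped with WT.

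AT1G16950, of unknown function, was listed at 0 in WT shoots and WT roots. It read 2.73 and 2.80 FPKM in clf-28 shoots replicates 1 and 2, 10.6, 2.16 and 5.05 FPKM in WT inflorescences and 3.62, 6.56 and 7.85 FPKM in clf-28 inflorescences. WT and clf-28 overlapped in inflorescences and in siliques, where WT read 4.16, 3.52 and 5.09 FPKM and clf-28 replicates 1 and 2 read 2.40 and 3.79 FPKM. AT5G50361 and AT5G26970 were fruit transcripts of unknown function. AT5G50361 read 3.03, 4.53 and 1.73 FPKM in WT inflorescences and 31.0, 4.48 and 12.6 FPKM in WT siliques, and 6 and 3.03 FPKM in clf-28 shoots replicates 1 and 2. AT5G26970 read 0, 0 and 1.60 FPKM in WT inflorescences and 15.1, 5.00 and 7.55 FPKM in WT siliques, and 2.06 and 7.49 FPKM in clf-28 shoots replicates 1 and 2. Neither was called between the genotypes in any tested tissue. AT4G15460, a glycine-rich protein, read 1.16, 0.838 and 0.342 FPKM in WT inflorescences. Its locus overlaps AT4G15450, which read 10.6, 13.6 and 12.9 FPKM in WT shoots and 50.8 and 44.9 FPKM in clf-28 shoots replicates 1 and 2.

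Another set, on longer loci, stayed at or under 1.28 FPKM in every library outside clf-28 shoots replicates 1 and 2 and the library bearing the label clf-28 siliques replicate 3. AT1G65760, a protein of the DUF295 family named as a regulator of ascorbate synthesis, stood at 2.96 and 2.41 FPKM in clf-28 shoots replicates 1 and 2 and at 2.92 FPKM in the library bearing the label clf-28 siliques replicate 3. AT4G11911, a STAY-GREEN-like protein of a family that acts in chlorophyll breakdown, stood at 2.54, 2.15 and 1.62 FPKM in these 3 libraries. AT3G27040, a MATH domain protein, stood at 1.23, 1.27 and 1.30 FPKM there. AT5G40790, of unknown function, stood at 1.68, 1.11 and 1.02 FPKM, and AT1G69470, named a heat shock protein-binding protein, at 1.75, 2.15 and 1.83 FPKM. In WT these genes had little expression in any tissue sampled, the highest WT value being 1.28 FPKM for AT4G11911 in inflorescences replicate 3. AT1G69470 overlaps AT1G69480, which read 0.329, 0.878 and 1.20 FPKM in WT shoots and 15.4 and 13.4 FPKM in clf-28 shoots replicates 1 and 2. NTMC2T5.2 (AT3G19830), a calcium-dependent lipid-binding protein, also had a second line that was on in WT shoots, at 7.74, 10.5 and 9.77 FPKM. A second line of AT4G19829 read 0.657, 0.519 and 0.853 FPKM in WT shoots and 1.04 and 0.705 FPKM in clf-28 shoots replicates 1 and 2. A second line of AT5G26970 read 0, 0.564 and 0 FPKM in WT shoots, so by all lines these genes too were not under 0.1 FPKM in every WT shoots library. In all, 6 of the 25 genes were spread over several lines of the table: DAD1, NTMC2T5.2, AT4G19829, AT4G35680, AT5G26970 and AT5G50361.

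**Figure D3:**
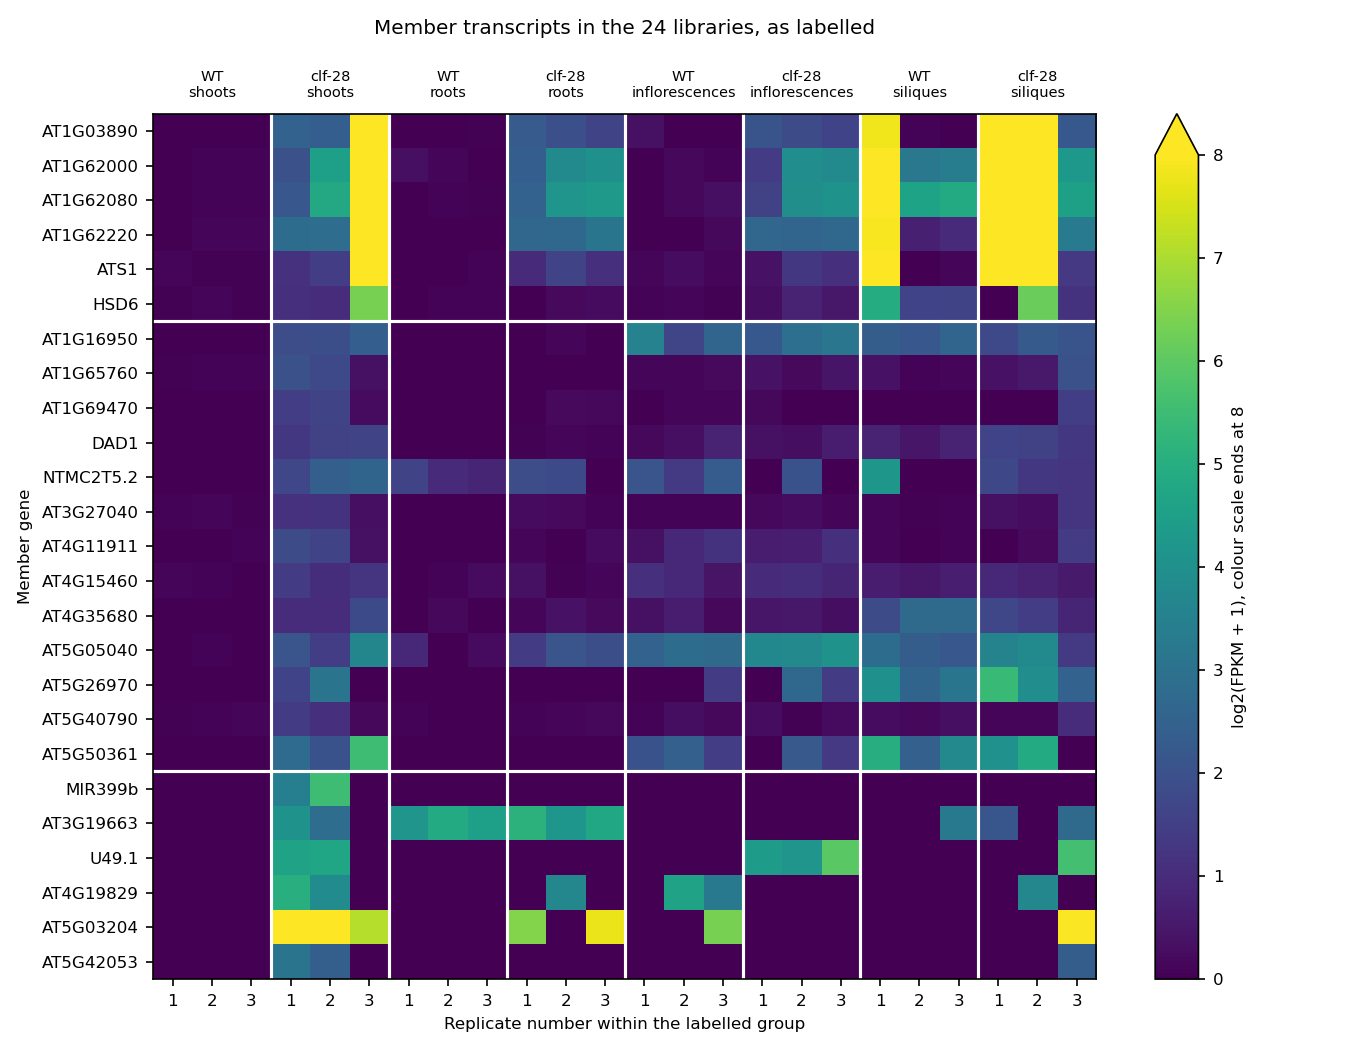
Rows are the 25 genes and columns the 24 libraries as labelled, coloured by log2(FPKM + 1), with the scale ending at 8. White lines part the seed genes (top), the other genes (middle) and the loci under 200 bases (bottom). The library bearing the label clf-28 shoots replicate 3 resembles clf-28 siliques replicates 1 and 2 in the seed genes, and WT siliques replicate 1 stands apart from the other WT siliques.

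Short loci made up the last set: 6 of the 25 genes (24%) had a locus under 200 bases, against 9.86% of the genes silent in WT shoots and 3.40% of all genes on 1-gene lines. They were above 0 in 2 to 11 of the 24 libraries, and the other 19 genes in 9 to 23. FPKM divides by length, so few fragments at such a locus give a high value, and values there jump between 0 and levels far above 1 FPKM. MIR399b (chr1:23345377-23345511) is a precursor of miR399, the microRNA that lowers the ubiquitin conjugase PHO2 under phosphate starvation. Its mature sequence, read from the RefSeq TAIR10.1 genome at chr1:23345387-23345407 on the minus strand and so written with T, is shown to identify it, with the seed (bases 2 to 8) in capitals.
miR399b: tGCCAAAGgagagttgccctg
MIR399b read 9.91 and 45.2 FPKM in clf-28 shoots replicates 1 and 2 and was listed at 0 in the 22 other libraries, the library bearing the label clf-28 siliques replicate 3 included. A TruSeq RNA library is not made to hold mature microRNAs, so the value is that of the precursor locus.

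U49.1 (AT4G05048, chr4:2586978-2587104) is a small nucleolar RNA, of the class that guides chemical modification of ribosomal RNA. It read 23.2 and 24.9 FPKM in clf-28 shoots replicates 1 and 2, 19.8, 17.1 and 61.4 FPKM in clf-28 inflorescences and 48.1 FPKM in the library bearing the label clf-28 siliques replicate 3. All other libraries, every WT one among them, were listed at 0. U49.1 was higher in clf-28 inflorescences (limma adjusted p = 6.87e-06), with no fold given against a group at 0. With all 24 libraries as labelled this call was lost (adjusted p = 0.0526). In the 17 libraries every group but clf-28 inflorescences was at 0 throughout, so that group alone added to the spread. The p-values of U49.1 from the 17 libraries thus rest largely on zeros at a short locus. The difference in inflorescences exceeded that in roots (adjusted p = 2.33e-05) and that in siliques (adjusted p = 6.84e-05). Both contrasts were lost with the 24 libraries (adjusted p = 0.182 and 0.379) and with the 18 libraries that hold all siliques as labelled (adjusted p = 0.14 and 0.304). For inflorescences against roots, 0.983% of all tested genes were called higher and 3.74% lower. AT5G03204 read 457 and 413 FPKM in clf-28 shoots replicates 1 and 2, 90.2, 0 and 216 FPKM in clf-28 roots and 0, 0 and 81.0 FPKM in WT inflorescences. AT4G19829 read 31.2 and 13.5 FPKM in clf-28 shoots replicates 1 and 2 and 0, 23.2 and 8.37 FPKM in WT inflorescences, and AT5G42053 read 7.52 and 4.31 FPKM in the same shoots libraries and 4.12 FPKM in the library bearing the label clf-28 siliques replicate 3. Libraries of 1 group were at 0 and far above 0 side by side for AT5G03204 and AT4G19829, and neither was called between the genotypes. AT3G19663 was the root transcript of the set, at 17.2, 28.7 and 21.6 FPKM in WT roots, 34.3, 17.3 and 26.9 FPKM in clf-28 roots, and 15.8 and 6.28 FPKM in clf-28 shoots replicates 1 and 2. Its root groups overlapped, and it was listed at 0 in all inflorescences.

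**Figure D4:**
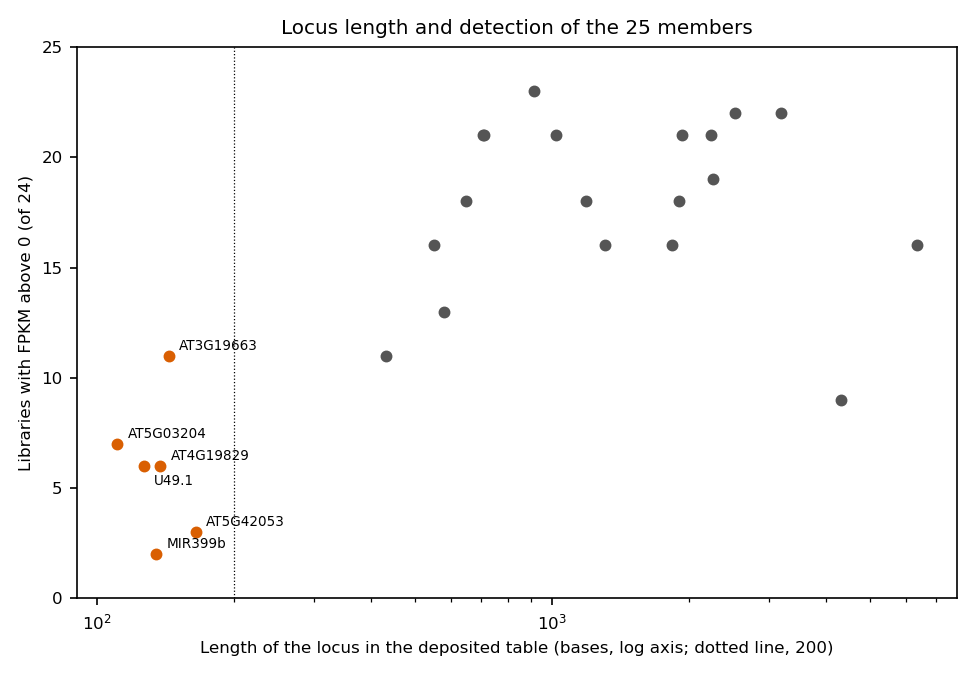
Each point is 1 of the 25 genes, by the length of its locus in bases (log axis) and the number of the 24 libraries with FPKM above 0. The 6 loci under 200 bases (orange, left of the dotted line) were above 0 in 2 to 11 libraries, the other 19 (grey) in 9 to 23.

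By the WT tissue with the highest mean at 1 FPKM or more, 10 of the 25 genes were silique genes, 4 inflorescence genes, 1 a root gene, and 10 reached a mean of 1 FPKM in no WT tissue. The silique genes were the 6 seed genes, AT4G35680, AT5G26970, AT5G50361 and NTMC2T5.2, whose mean rested on 17.7 FPKM in WT siliques replicate 1 beside 0 in the other replicates. A second line of NTMC2T5.2 read from 4.96 to 11.3 FPKM over the WT libraries of all tissues, so the silique label holds for the chosen line only. The inflorescence genes were AT1G16950, AT5G05040, AT4G19829 and AT5G03204, the last with 1 of 3 WT inflorescences libraries above 0. The means of the seed genes in WT siliques rested on replicate 1 as well, and in the other replicates AT1G62080 at 24 and 28.4 FPKM and AT1G62000 at 8.27 and 9.49 FPKM were the highest of them. At 1 FPKM or more stood 12, 8 and 9 of the 25 genes in the 3 WT siliques libraries, 5, 5 and 8 in WT inflorescences, and 2, 1 and 1 in WT roots.

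Within WT, 6 of the 20 tested genes were higher in inflorescences than in roots, where 35.5% of all tested genes were, and 1 was lower, where 24.7% of all were. These shares do not set the genes apart from the rest. The 6 were AT5G05040 (log2 difference 2.33, SE 0.24), AT1G16950 (2.60, SE 0.36), AT5G50361 (1.98, SE 0.58), AT4G11911 (0.83, SE 0.17), AT4G15460 (0.70, SE 0.15) and DAD1 (0.43, SE 0.14), with limma adjusted p of at most 0.0167, and the root gene AT3G19663 was the one lower (-4.53, SE 0.71). WT siliques were higher than WT inflorescences for 5 genes, where 16.9% of all tested genes were, and lower for 1, where 20.8% of all were. The 5 were AT1G62080 (6.78, SE 1.33), AT1G62000 (5.84, SE 1.54), AT5G26970 (2.77, SE 0.59), AT4G35680 (2.07, SE 0.20) and AT5G50361 (1.76, SE 0.58), with limma adjusted p of at most 0.0271. Without WT siliques replicate 1 the difference was 4.59 for AT1G62080 and 3.22 for AT1G62000, and with the libraries of the compared groups alone the AT1G62000 call was lost (adjusted p = 0.0967). AT4G11911 was lower (-0.76, SE 0.17), and the AT5G50361 call was lost without WT siliques replicate 1 (adjusted p = 0.115) or 3 (adjusted p = 0.0612), or WT inflorescences replicate 1 (adjusted p = 0.053) or 3 (adjusted p = 0.096). The DAD1 call between WT inflorescences and roots was lost without WT inflorescences replicate 3 (adjusted p = 0.0877).

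Between the genotypes, the roots test called 1 of the 20 tested genes higher in clf-28 and 0 lower, where 5.25% and 1.67% of all tested genes were called. The inflorescences test called 2 higher, AT5G05040 and U49.1, and 0 lower, where 1.03% and 1.54% of all were called. The siliques test called 7 higher, the 5 seed genes, DAD1 and AT5G05040, and 1 lower, where 10.4% and 14% of all were called. The median log2 difference of the tested members was 0.16 in roots, 0.15 in inflorescences and 0.50 in siliques, beside 0 in roots, 0 in inflorescences and -0.04 in siliques over all genes tested. With the 5 siliques libraries fitted alone none of the genes was called, and adjusted p was 0.0508 for DAD1, 0.0542 for AT5G05040 and 0.159 for AT4G35680. In the fit of 12 libraries, 19 of the genes were tested, and 6 were called higher in roots and 6 in inflorescences, with 0 lower in either. The seed genes among these calls were at or near 0 in WT, as given above. Of all genes in that fit, 6.77% were called higher and 2.2% lower in roots, and 1.41% higher and 1.86% lower in inflorescences. Leaving WT siliques replicate 1 out of the 17 libraries likewise gave 6 and 6 calls. The comparisons in roots, inflorescences and siliques share no library but share 1 estimate of the spread per gene.

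**Figure D5:**
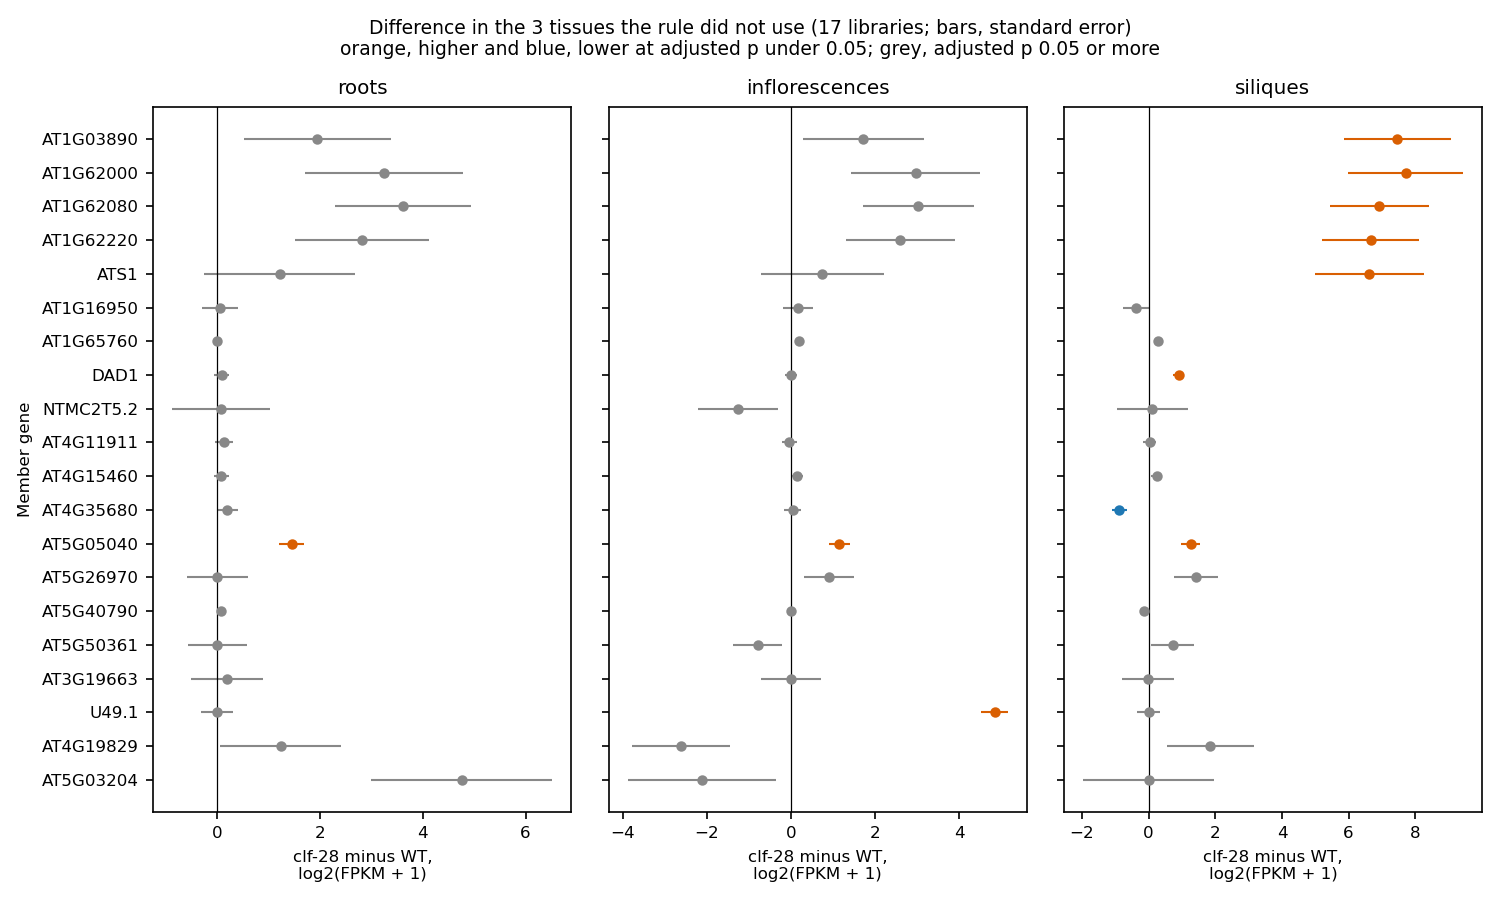
Points are log2 differences of clf-28 minus WT on log2(FPKM + 1) for the 20 tested genes in roots, inflorescences and siliques, with bars of 1 standard error from the fit of 17 libraries. Orange points (higher) and the blue point (AT4G35680, lower) had an adjusted p under 0.05, and grey points did not. U49.1 in inflorescences is set against a WT group listed at 0, so its distance from 0 depends on the pseudocount.

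Classical targets of Polycomb were outside this set. Of 25 floral, flowering-time and meristem regulators such as AG, SEP3, FLC and FT, 0 were members, because 24 of them already had 0.1 FPKM or more in some WT shoots library. AG, the MADS factor of stamens and carpels, read 0.174, 0.408 and 0.365 FPKM in WT shoots and 48.0 and 40.0 FPKM in clf-28 shoots replicates 1 and 2. FT, the flowering signal, read 1.78, 1.77 and 1.52 FPKM in WT shoots and 28 and 31.6 FPKM in clf-28 shoots. In all, 13 of the 25 regulators stood at 1 FPKM or more in both clf-28 shoots replicates and above every WT shoots library. In the tested tissues 5 of them rose and 0 fell in clf-28 roots, 1 rose and 2 fell in inflorescences, and 2 rose and 6 fell in siliques. Of all tested genes 5.25% rose and 1.67% fell in roots, 1.03% and 1.54% in inflorescences, and 10.4% and 14% in siliques. Of the seed storage list, 1 gene (ATS1) was a member, and 11 others were on in clf-28 shoots and above WT shoots without having been under 0.1 FPKM in all WT shoots libraries. Pollen genes summed to 2.68 to 4.31 FPKM in WT shoots and 3.89 to 4.79 FPKM in clf-28 shoots, tapetum genes to 1.69 to 2.73 and 2.51 to 2.56 FPKM, and the ranges of both lists overlapped between the genotypes. Root markers summed to 40.3 to 57.2 FPKM in WT shoots and 27.2 to 27.4 FPKM in clf-28 shoots. The source of the AT3G19663 reads in clf-28 shoots was not tested.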

How the data were processed

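Per the submitters' processing notes, the authors aligned reads with TopHat, assembled with Cufflinks and Cuffdiff and used TAIR10, with versions not given in the sources used here. They deposited 1 table of FPKM values with a status word per library, per the file headers. It held 34178 lines, of which the 32102 that named 1 gene were used. The 48 deposited columns of confidence bounds were not used. Values with a status other than OK are listed at 0 in the table and kept a gene out of the choice and of the tests. FPKM carries no depth, so no counting interval can be given, and p-values measure only the spread between the libraries. Groups were taken from the titles.

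Values were analysed as log2(FPKM + 1) with limma 3.58.1 in R 4.3.3 (trend and robust eBayes, 11 residual degrees of freedom, Benjamini-Hochberg over 24418 genes), tested on simulated data. Genes were named by level in clf-28 shoots, by calls, by WT tissue level and by list membership. The members and lists were chosen with earlier results of these data known. Alternatives changed the libraries, the pseudocount, the filter on low values, the scaling and the replicate term, and the fit of 12 libraries was chosen after the data had been seen. RefSeq (TAIR10.1) held 24 of the 25 genes, and of 31456 deposited loci compared, 99.1% overlapped the same gene there. Transcript identity came from BLAST 2.17.0.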

Additional observations from a re-analysis of the deposited data

Results flagged for a closer look

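Contrasts between tissues of the genotype difference were past the threshold for 3 genes. For U49.1 (AT4G05048), whose WT libraries were all listed at 0, the inflorescences difference exceeded the roots difference (limma adjusted p = 2.33e-05) and the siliques difference (adjusted p = 6.84e-05). Both were lost with all 24 libraries as labelled (adjusted p = 0.182 and 0.379) and with the 18 libraries that hold all siliques as labelled (adjusted p = 0.14 and 0.304). Those fits include the library bearing the label clf-28 siliques replicate 3, where U49.1 read 48.1 FPKM. In the 17 libraries U49.1 was at 0 throughout every group but clf-28 inflorescences, so its p-values rest largely on zeros. For DAD1 (AT2G44810), higher in clf-28 in both siliques libraries, the siliques difference exceeded that in inflorescences (adjusted p = 0.0132) and in roots (adjusted p = 0.0193). The DAD1 contrasts were lost without clf-28 siliques replicate 1 (adjusted p = 0.0586 and 0.076), the roots contrast also without replicate 2 (adjusted p = 0.0565), and both with a pseudocount of 0.1 FPKM (adjusted p = 0.139 and 0.385). For AT4G35680, lower in clf-28 siliques by the chosen line, the siliques difference lay below the roots difference (adjusted p = 0.0267), and it was lost without WT roots replicate 3, WT siliques replicate 2 or 3, clf-28 roots replicate 2 or clf-28 siliques replicate 1 or 2 (adjusted p = 0.055 to 0.113).

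The libraries set aside for going against their labels carried values for the 25 genes. In the library bearing the label clf-28 siliques replicate 3, 20 genes were at 1 FPKM or more, and in the library bearing the label clf-28 shoots replicate 3, 14 were. In WT shoots, by the choice, 0 were.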

How the results depend on the processing

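The 17 libraries gave 1 gene called in roots, 2 in inflorescences, 8 in siliques, 7 for WT inflorescences against roots and 6 for WT siliques against inflorescences. With all 24 libraries as labelled these became 0, 0 and 2 (roots, inflorescences, siliques) and 2 (WT siliques against inflorescences). With the 18 libraries that hold all siliques as labelled they became 0, 1, 3 and 3. With each tissue alone roots gave 6 and siliques 0. Without the 3 WT libraries numbered 1, roots and inflorescences gave 6 and 6, as did the fit of 12 libraries. A pseudocount of 0.1 FPKM gave 3 and 1, and no filter gave 2 in roots. A filter of 1 FPKM in 3 libraries gave 4 for WT inflorescences against roots. The cause was not tested. Leaving out 1 library at a time gave 1 to 6 in roots and in inflorescences, where WT siliques replicate 1 gave the 6, 6 to 9 in siliques, 6 to 9 for WT inflorescences against roots and 6 to 7 for WT siliques against inflorescences. Single genes were followed only where called in the 17 libraries, or in roots or inflorescences with that tissue fitted alone. Of 1049 such values under alternatives, 946 kept direction and side of the threshold, 73 lost a call, 30 gained one and none changed direction. Calls gained by other genes are not in these numbers, so they do not measure how stable the calls are over all the genes.

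The replicate numbers did not pair WT with clf-28 libraries within roots or inflorescences (correlation of deviations 0.0759, 0.0237 and -0.00315 in roots, -0.1, -0.026 and -0.198 in inflorescences). Whether libraries of the same number vary together across tissues was not tested. With a replicate block the counts were 1, 2, 8, 8 and 7. Quantile normalization moved the share of higher calls over all genes from 75.9% to 60.6% in roots and from 58.9% to 46.6% for WT inflorescences against roots.

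The choice gave 25 genes. It gave 16 with WT shoots under 0.05 FPKM, 46 under 0.2 FPKM, 39 with clf-28 shoots at 0.5 FPKM, 16 at 2 FPKM and 14 when the library bearing the label clf-28 shoots replicate 3 was also required. Leaving out 1 of the 5 shoots libraries, chosen after the data had been seen, gave 32 to 49 genes, since fewer conditions were set. Depth is unknown, so low values, short loci and exact zeros carry no stated error.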
